A study of Homo sapiens with 20 samples.

Results

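The first day of neuronal differentiation was examined in neural progenitors made from the established human embryonic stem cell line H1. The comparison used 6 of the 20 samples of a course of 7 days, namely the 3 cultures titled as Day 0 and the 3 titled as Day 1. Cells of Day 0 had grown on diluted Matrigel in a proliferation medium made of 50% DMEM/F12 and 50% Neurobasal, with N2 and vitamin A-free B27 at 0.5X each and FGF at 20 ng/ml. Cells of Day 1 had then been kept for 1 day in a differentiation medium of Neurobasal with vitamin A-free B27 at 1X and BDNF at 10 ng/ml, without FGF, N2 or DMEM/F12. Loss of FGF, gain of BDNF, the new base medium and supplements, and 1 more day after plating came together and cannot be told apart in these samples. All cultures came from the same cell line, and the labels do not say whether the 3 cultures of a day were started separately.

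Polyadenylated RNA was sequenced, and expression is given as FPKM, the fragments assigned to a gene record scaled to its length and to the mapped fragments of the library. Each record has 1 FPKM value per day. The authors obtained it from all cultures of a day together, and it is called pooled here. No spread between cultures can therefore be given, no test was run, and the depth behind the values is unknown. "Higher" and "lower" describe the difference between 2 such pooled values. The change is the difference of log2(FPKM + 0.1) between Day 1 and Day 0, less its median of -0.09 over the 14443 expressed records, those whose mean FPKM across the 7 days was 1 or more. The added 0.1 understates the change of records near 0. A record was counted as higher or lower when its change was at least 1 on the log2 scale, which is 2-fold. RNA was taken from whole cultures, so fewer cells of a type and less RNA per cell cannot be told apart.

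FGF acts on neural progenitors through receptor tyrosine kinases and the RAS-ERK cascade. ERK raises transcription of ETS factors and of its own inhibitors, the Sprouty proteins and dual-specificity phosphatases, and so holds progenitors in division. Notch ligands on young neurons keep their neighbours as progenitors through HES factors, while proneural factors such as NEUROG2 drive exit towards neurons. BDNF binds the receptor TrkB, encoded by NTRK2. A separate pathway, in which the transcription factor ATF4 is translated when amino acids are short or protein synthesis is stressed, raises genes of amino acid uptake and synthesis.

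Among 11793 expressed coding records of 20237, 532 were higher on Day 1, which is 4.51% of them, and 261 were lower, which is 2.21%. Higher records made up 67.1% of all records past 2-fold after centring. When the FPKM values were taken as deposited, their share was 53.9% (425 higher and 364 lower). After centring with a pseudocount of 1 it was 55.2% (238 and 193). With records kept by their mean over Days 0 and 1 it was 59.8% (455 and 306). The next step held far fewer such records. From Day 1 to Day 2, also 1 day, 32 coding records passed 2-fold (0.271%), and the SD of the change over expressed coding records was 0.20 against 0.56 on the first day. The later steps gave 94 records over the 2 days to Day 4 (0.797%), 49 to Day 5 across a replating (0.416%), 675 over the 6 days to Day 11 (5.72%) and 381 over the 7 days to Day 18 (3.23%). More coding records thus passed 2-fold on the first day than in any later step, including those of 6 and 7 days, and this held in 8 of 8 settings of pseudocount, centring, filter and record set. These steps share days with each other, and the number of cultures was 3 on every day but Day 5.

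**Figure D1:**
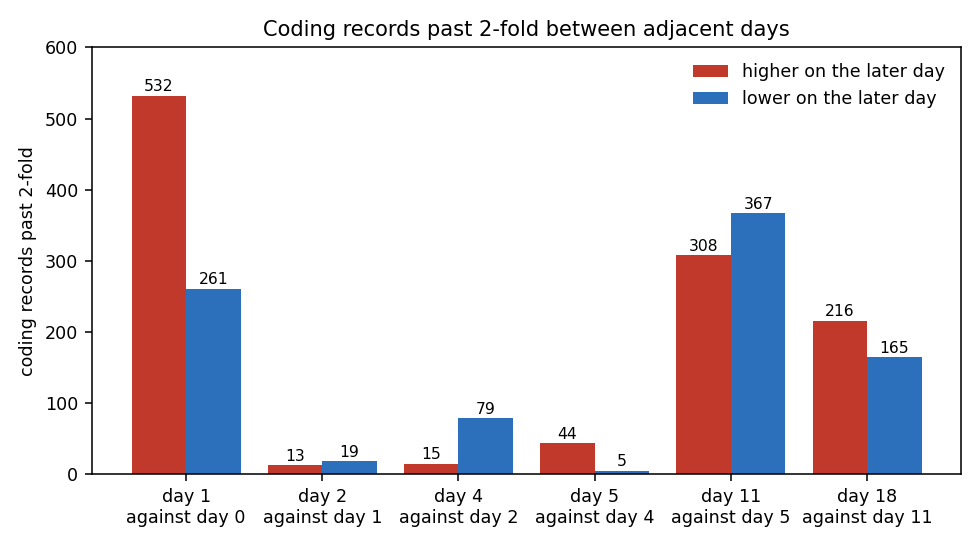
Number of expressed coding records (y axis) past 2-fold between adjacent days (x axis), with red bars for records higher and blue bars for records lower on the later day. The first day has 532 higher and 261 lower records, and the step from Day 1 to Day 2 has 13 and 19.

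The share of records past 2-fold depended on their level. Among the 1654 coding records with a mean FPKM from 1 to below 3, 229 were higher and 80 lower, and their median change was 0.26. Among the 2049 records at 30 or more, 35 were higher and 38 lower, and the median change was -0.16. Records between 3 and 10 had a median of 0.04, and those between 10 and 30 of -0.05. Low records also varied more between Day 1 and Day 2, with an SD of 0.33 in the lowest class and 0.16 in the highest. List medians below are therefore best read against the median of records of like level as well as against the median of -0.01 over all expressed coding records.

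**Figure D2:**
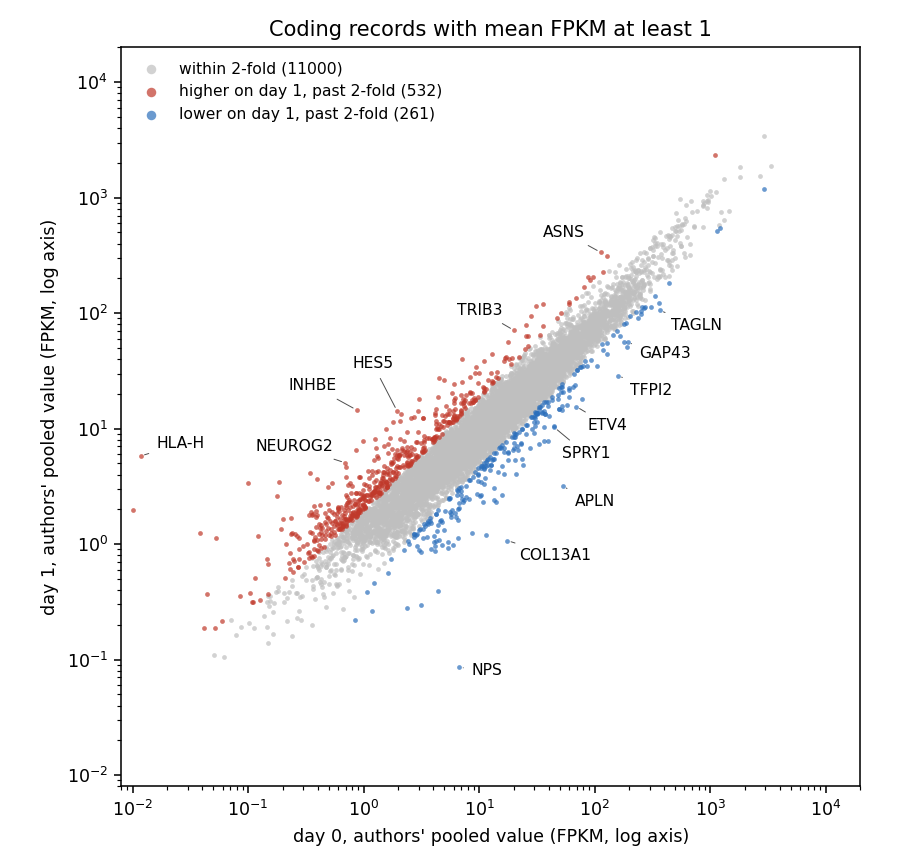
FPKM on Day 0 (x axis) against FPKM on Day 1 (y axis), both on log axes, for each expressed coding record, with records past 2-fold in red (532 higher) or blue (261 lower). Most records lie along the diagonal, and the scatter widens towards low FPKM; values under 0.01 are drawn at 0.01.

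The cultures carried the markers of neural progenitors on both days. The intermediate filament gene NES stood at 513 FPKM on Day 0 and 468 on Day 1, and SOX2 at 126 and 121. None of the 5 progenitor markers passed 2-fold, and their median change was 0.12. Of the 6 pluripotency markers, POU5F1, NANOG and ZFP42 were under 0.1 FPKM on both days. The other members were expressed, with LIN28A, which blocks maturation of let-7, at 32.1 and 19.9, DPPA4 at 9.72 and 6.71, and DNMT3B, the 1 lower member, at 20.1 and 8.54. The sum of the 6 was 62.0 on Day 0 and 35.2 on Day 1. Markers of epithelium (5 genes, summed FPKM 0.548 and 0.896) and of blood (4 genes, 0.963 and 1.15) were near 0 on both days. The 5 oligodendrocyte lineage markers summed to 8.07 and 6.07, with OLIG1 and OLIG2 near 0. Of the 6 neural crest markers, TFAP2B and PAX3 were present at 21.9 and 31.0 on Day 0 and SOX10 and FOXD3 near 0. SNAI2 was lower (13.3 and 5.42). TFAP2A was near 0 on both days (0.0415 and 0.189) and passed the filter only through later days. Its change of 1.12 came to 0.27 with a pseudocount of 1. The 6 mesenchymal markers summed to 37.5 and 29.4, most of it PDGFRA in a merged record. The 3 expressed members all had a change below 0, with a median of -0.94, and PDGFRB was lower (-1.55). With only single-symbol records on primary chromosomes, 1 member was left and 0 were lower. The endothelial markers with a record were lower on Day 1: KDR, a VEGF receptor, went from 23.8 to 4.80, CDH5 from 2.34 to 0.180 and TEK from 2.50 to 0.818, while PECAM1, the other listed marker, matched no record, and their sum went from 28.6 to 5.79. Of the 4 astrocyte markers, S100B was lower (8.68 and 1.25), and GFAP, AQP4 and ALDH1L1 were under 0.4 on both days.

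By a rule of at least 5 FPKM on either day, a single symbol and a primary chromosome, the 12 coding records with the lowest change were NPS, APLN, COL13A1, SLC6A6, S100B, TLR4, THY1, CD34, TFPI2, ALK, ARHGDIB and NT5E. APLN, which encodes the secreted peptide apelin, had 52.9 FPKM on Day 0 and 3.16 on Day 1, a change of -3.93. COL13A1, a transmembrane collagen, went from 17.6 to 1.07 (-3.82), and the neuropeptide gene NPS from 6.74 to 0.0857 (-5.11). The highest level in this group was that of TFPI2, an inhibitor of serine proteases, at 160 on Day 0 and 28.8 on Day 1 (-2.37). The other members were transporters (SLC6A6, for taurine), receptors (TLR4 of innate immunity and the tyrosine kinase ALK), surface glycoproteins (THY1, CD34), the ectonucleotidase NT5E and the GDP dissociation inhibitor ARHGDIB, with changes between -3.06 and -2.24. All 12 stayed below their Day 0 level on every later day. CD34 and APLN are also expressed by endothelium, whose marker sum moved in the same direction as given above; the part of such cells in these values was not tested.

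The 12 highest by the same rule included HLA-H, INHBE, PCLO, HES5, NEUROG2, EGR1, PRDM12, SLC16A14, STC2, SLC7A3 and HES3. HLA-H is uncertain: it shares sequence with other HLA class I genes, and its values of 0.0118, 5.79, 0.0608, 4.43, 0.436, 2.79 and 0.301 over the 7 days alternate. INHBE, an activin-type ligand chain, went from 0.868 to 14.5 FPKM (4.01), and stood at 13.3 on Day 2 and 0.122 on Day 18. SLC7A3, a carrier of cationic amino acids, went from 4.54 to 27.2 (2.65), and STC2, a stanniocalcin hormone, from 1.55 to 9.84 (2.68). PCLO, a scaffold of the presynaptic active zone, had 0.980 and 7.76 (2.96) and kept above 9 afterwards. PRDM12, a regulator of sensory neuron fate, had 1.25 and 8.18 (2.71), and SLC16A14, of the monocarboxylate transporter family, 2.11 and 13.4 (2.70). HES5, HES3, NEUROG2 and EGR1 are described with their pathways below.

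Most genes of amino acid supply and of the ATF4 response were higher on Day 1. The 20 listed genes, like the members of the other lists, were chosen with earlier results of these data known. All 20 were expressed, 14 were higher, none was lower, and the median change was 1.36. The remaining 6 (VLDLR, ATF4, SLC7A1, SLC7A5, SLC7A11 and PSPH) had changes from 0.45 to 0.98. Asparagine synthetase (ASNS) went from 113 to 336 FPKM, a change of 1.67 or 3.18-fold. Serine synthesis moved in the same direction: PHGDH, its first enzyme, had 127 and 313 (1.39), PSAT1 97.7 and 206 (1.17), and PSPH, its last, 22.2 and 41.0 (0.98). Mitochondrial one-carbon enzymes followed, with SHMT2 at 87.6 and 207 (1.33), MTHFD2 at 59.5 and 124 (1.15) and ALDH1L2 at 2.38 and 9.37 (2.03).

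Regulators of the stress response were higher in like measure. DDIT3, the transcription factor CHOP, had 17.8 FPKM on Day 0 and 56.3 on Day 1 (1.75). TRIB3, a pseudokinase that restrains the response, had 20.0 and 71.0 (1.92), CHAC1, which degrades glutathione, 13.0 and 44.6 (1.86), and DDIT4, an inhibitor of mTORC1, 35.5 and 121 (1.86). CEBPB, a partner of ATF4 on DNA, went from 5.20 to 15.5 (1.66). The ATF4 message itself had 327 and 454 (0.57); its control is known to lie largely in translation, which RNA levels do not report. All 20 genes had their highest value of the course on Day 1 or Day 2, and 19 were below their Day 0 level on Day 11. ASNS stood at 320, 261, 199, 44.0 and 59.3 on Days 2, 4, 5, 11 and 18, and CHAC1 at 46.1, 33.0, 18.3, 2.92 and 9.01.

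Promoters of ASNS and CHAC1 are shown because they had the largest changes among members past 2-fold whose window held the letters below. Both genes are known targets of ATF4, which binds C/EBP-ATF response elements. Of the 20 genes, 16 matched a RefSeq promoter window (build GRCh38.p14, 250 bases before to 50 after the start). Of these 16, 4 (25%), namely ASNS, CHAC1, SLC3A2 and SLC7A1, held the letters TGATGNAA on either strand, against 4.46% of 27305 RefSeq genes. A gene was counted when any of its windows held the letters, and the 27305 genes were not limited to those expressed here. The match begins 68 bases before the ASNS start and 209 bases before the CHAC1 start. The letters, like the lists, were chosen with earlier results of these data known. A match is only a run of letters in this window, and says nothing of binding in these cells. Capitals mark it below, with the sequence written 5′ to 3′ on the strand of the gene.
ASNS, chr7:97872359-97872658, minus strand: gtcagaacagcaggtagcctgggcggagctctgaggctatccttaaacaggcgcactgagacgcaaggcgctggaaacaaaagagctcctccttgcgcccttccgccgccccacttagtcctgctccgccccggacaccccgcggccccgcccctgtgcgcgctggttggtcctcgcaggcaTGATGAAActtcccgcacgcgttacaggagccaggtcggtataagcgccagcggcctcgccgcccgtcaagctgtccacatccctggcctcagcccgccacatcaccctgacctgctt
CHAC1, chr15:40953221-40953520, plus strand: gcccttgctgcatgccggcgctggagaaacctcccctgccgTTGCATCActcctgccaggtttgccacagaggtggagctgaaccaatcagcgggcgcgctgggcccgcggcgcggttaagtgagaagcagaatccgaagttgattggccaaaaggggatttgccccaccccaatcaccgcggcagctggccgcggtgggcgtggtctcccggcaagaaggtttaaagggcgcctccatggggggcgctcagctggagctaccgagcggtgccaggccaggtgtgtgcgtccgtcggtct

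Further gene sets next to this response were added after the values above had been seen. Of 20 cytosolic aminoacyl-tRNA synthetase genes, which load amino acids onto tRNA, 1 was higher (WARS1, 68.5 and 136 FPKM, 1.08) and none lower, and the median change was 0.48. Without centring none was higher and 1 was lower (VARS1). Within that family GARS1, MARS1 and SARS1 had changes of 0.90, 0.90 and 0.87, and VARS1 of -0.95. Of 18 genes of protein folding in the endoplasmic reticulum, 1 was higher (HERPUD1, of ER-associated degradation, 17.0 and 42.0, 1.40) and none lower, or 1 without centring. The list divided. The chaperones HSPA5 and HSP90B1, standard targets of the unfolded protein response, had changes of 0.07 and -0.80. XBP1, SEL1L and DNAJB9 had 0.95, 0.83 and 0.57. Of the 18, 8 had a change above 0 and 10 below, and the median was -0.22. No test of the difference between these sets and the amino acid list could be made.

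FGF signalling read-outs were lower on Day 1 in part. Of 25 genes of ERK feedback and ERK response, 24 were expressed, 5 were lower, 1 was higher and 21 of the 24 had a change below 0, with a median of -0.57. The ETS factor ETV4 went from 69.3 to 15.5 FPKM (-2.06), whereas its relatives ETV1 and ETV5 had changes of -0.66 and -0.57. SPRY1, a Sprouty inhibitor, went from 44.7 to 10.3 (-2.02), and SPRY4 and SPRY2 had -0.93 and -0.89, just short of 2-fold. The other lower members were the AP-1 factor FOSL1 (17.6 and 6.25), the early response gene IER3 (20.0 and 7.47) and the nuclear phosphatase DUSP4 (25.3 and 10.7). DUSP6, the cytoplasmic ERK phosphatase and a common read-out of FGF activity, stood at 45.6 and 46.9 (0.13), and came to 10.7 only by Day 11. EGR1, an immediate early target of ERK, went the other way, from 1.78 to 11.5 (2.72), and stood at 22.2 on Day 2 and 23.3 on Day 4.

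FGF ligands and receptors had a median change near 0. Of 16 FGF ligand and receptor genes, 9 were expressed, 2 were higher, none was lower, and the median was 0.10. FGFR1, the most abundant receptor, had 114 and 98.6 FPKM (-0.12), FGFR2 6.11 and 13.0 (1.17) and FGFR3 14.5 and 25.8 (0.92). The other higher record holds FGF11 merged with CHRNB1 and SPEM1 (5.51 and 11.4), so its value cannot be given to FGF11 alone. In the EGF family, 7 of 13 genes were expressed and EGF was the 1 higher member, at 1.94 and 5.95 (1.66), with a list median of 0.49. Among 10 neurotrophin and receptor genes, 7 were expressed. NTRK2, the receptor of the added BDNF, had 28.5 and 25.3 (-0.08), BDNF itself 1.13 and 0.818, and NGFR, the low-affinity receptor p75, went from 0.709 to 3.80 (2.36) and on to 15.2 by Day 4. Of 25 immediate early genes, 15 were expressed and 2 were higher, EGR1 and the stress-responsive ATF3 (14.4 and 30.8, 1.18). FOS, the classical early gene, had 1.33 and 2.22 (0.79), and the list median was 0.28.

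**Figure D3:**
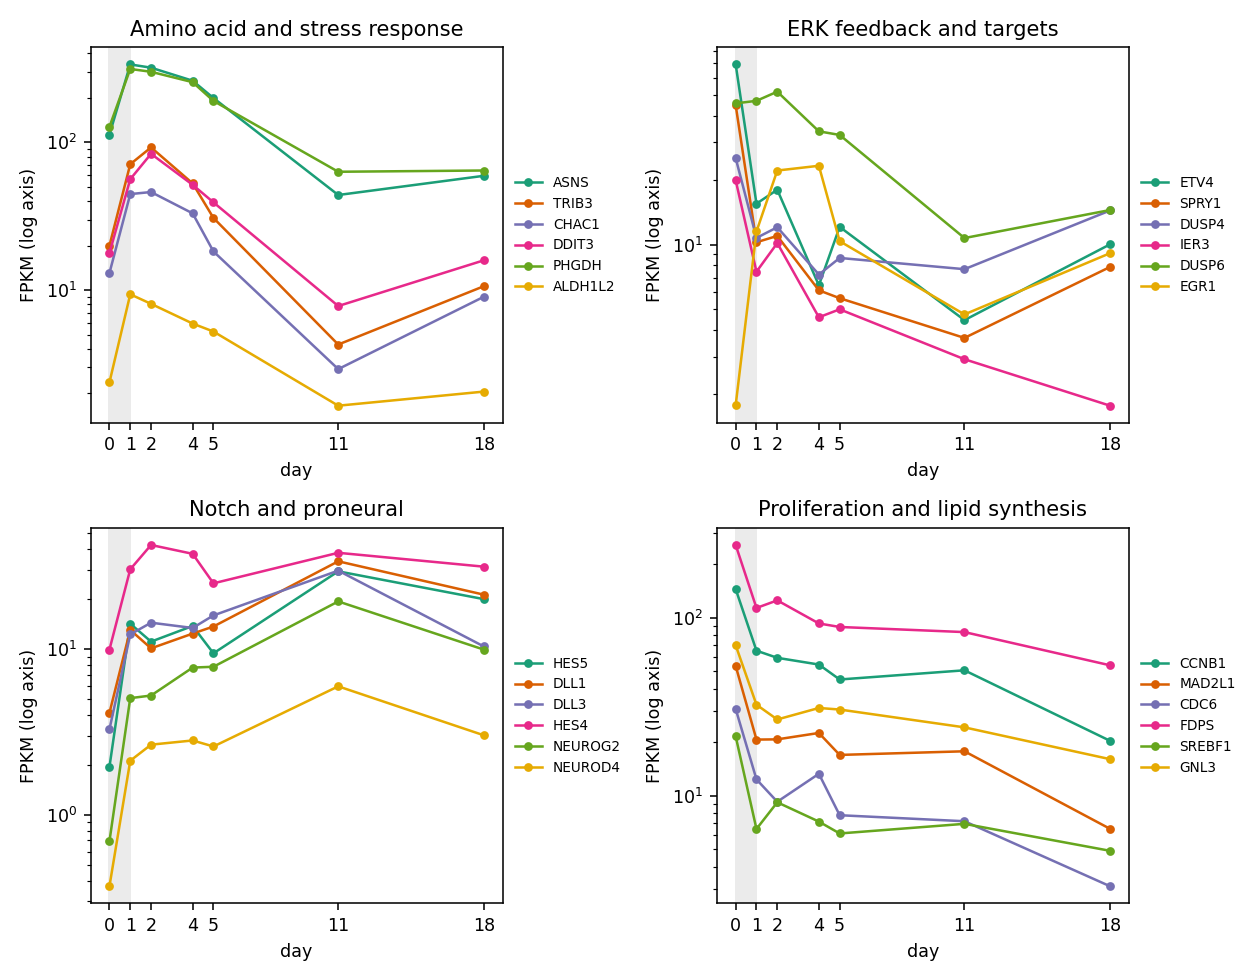
FPKM (y axis, log scale) on each of the 7 days (x axis) for 6 genes in each of 4 groups; each point is the authors' pooled value of a day, and the grey strip is the first day. The amino acid and stress genes are highest on Day 1 or 2, ETV4 and SPRY1 are about 4-fold lower on Day 1 while DUSP6 is at 45.6 and 46.9, the Notch and proneural genes are higher from Day 1 on, and the proliferation and lipid genes are lower from Day 1 on.

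Nearly all proliferation genes had a change below 0, mostly of less than 2-fold. Of 40 genes of G1/S and DNA replication, all were expressed, 39 had a change below 0, 4 were lower past 2-fold and none was higher, with a median of -0.64. Of 34 genes of G2/M and mitosis, 33 were below 0, 7 were lower past 2-fold, none was higher, and the median was -0.79. With FPKM as deposited, the lower members came to 7 and 12, and with each class centred on its own median to 2 and 6. CDC6, which loads the replicative helicase, went from 30.7 to 12.3 FPKM (-1.21), and the ribonucleotide reductase subunits RRM2 and RRM1 had changes of -1.05 and -1.01. The spindle checkpoint gene MAD2L1 went from 53.6 to 20.7 (-1.28), cyclin B1 (CCNB1) from 145 to 65.3 (-1.05) and CDK1, found under the older symbol CDC2, from 76.6 to 33.8 (-1.08). The proliferation marker MKI67 had 74.2 and 40.8 (-0.77). CCNB1 then stood at 59.5 on Day 2 and still at 50.6 on Day 11.

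Regulators of G1 mostly stayed within 2-fold. Of 12 D cyclin, kinase and inhibitor genes, 1 was higher (CDKN1C, the inhibitor p57, 8.22 and 16.6, 1.10), none was lower, and the median change was -0.01. Cyclin D1 (CCND1) had 75.3 and 61.0 (-0.21), CCND3 28.2 and 14.3 (-0.89) and the p53-induced inhibitor CDKN1A 120 and 116 (0.05). Of 18 p53 targets, 17 were expressed, 1 was higher (GDF15, a secreted stress factor, 5.98 and 12.4) and the median was 0.11. Of 24 ribosome biogenesis genes, all 23 expressed members had a change below 0, with a median of -0.61, but only GNL3, the nucleolar protein nucleostemin, passed 2-fold (70.0 and 32.4, -1.01). With FPKM as deposited 3 members were lower, and with coding records centred on their own median 0 were. The 77 cytosolic ribosomal protein genes had a median of 0.18, with 70 above 0 and only RPS26 past 2-fold (42.6 and 17.9, -1.16). In the chromatin list of 18 genes, DNMT3B was the 1 member past 2-fold, with a list median of -0.20; DNMT1, which maintains methylation at replication, had 49.1 and 29.7 (-0.63).

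Promoters of CDC6 and MAD2L1, the lowest members of their lists whose windows held the letters, are shown for the cell cycle elements known from these groups. The E2F core letters TTTNNCGC were found for 23 of 35 matched G1/S genes (65.7%) and for 8.23% of all 27305 genes. The cell cycle homology letters TTTGAA were found for 20 of 28 matched G2/M genes (71.4%) and for 18.2% of all. In the ERK list, the ETS core CCGGAAGT was found for 0 of 15 matched genes and for 4.95% of all genes. Both strands were searched. The match begins 7 bases after the CDC6 start and 24 bases after the MAD2L1 start, in capitals.
CDC6, chr17:40287629-40287928, plus strand: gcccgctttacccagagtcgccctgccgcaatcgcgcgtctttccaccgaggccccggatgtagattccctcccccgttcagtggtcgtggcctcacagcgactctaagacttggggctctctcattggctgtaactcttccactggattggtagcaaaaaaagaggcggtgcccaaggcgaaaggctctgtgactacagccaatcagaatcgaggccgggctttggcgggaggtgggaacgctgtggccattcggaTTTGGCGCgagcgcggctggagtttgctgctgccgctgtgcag
MAD2L1, chr4:120066799-120067098, minus strand: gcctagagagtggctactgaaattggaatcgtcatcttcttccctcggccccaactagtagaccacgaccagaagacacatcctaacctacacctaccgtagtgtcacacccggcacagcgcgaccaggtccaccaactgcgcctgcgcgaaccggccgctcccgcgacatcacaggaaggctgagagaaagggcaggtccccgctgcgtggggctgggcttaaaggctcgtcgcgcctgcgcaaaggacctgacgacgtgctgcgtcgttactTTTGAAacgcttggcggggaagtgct

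Most genes of lipid synthesis had a change below 0, and few passed 2-fold. All 25 cholesterol genes were expressed, 22 had a change below 0, 3 were lower past 2-fold, none was higher, and the median was -0.63, while records of like level (mean FPKM of 30 or more) had a median of -0.16. With FPKM as deposited, 5 passed 2-fold. The 3 after centring included ACAT2, which makes acetoacetyl-CoA (270 and 110 FPKM, -1.20), and FDPS, which makes farnesyl diphosphate (256 and 113, -1.08). SREBF2, the main activator of the pathway, had 158 and 164 (0.15). Of 11 fatty acid genes, 10 were expressed, all with a change below 0 and a median of -0.87, and 2 passed 2-fold: the activator SREBF1 (21.5 and 6.50, -1.62) and the desaturase FADS2 (337 and 141, -1.16). Without centring, 5 of the 10 did. The levels stayed low, with FDPS at 125 on Day 2 and 83.0 on Day 11.

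Glycolysis genes had a median of -0.50 over 22 genes, with 17 below 0. Only enolase 1 (ENO1, 1148 and 511 FPKM, -1.08) passed 2-fold (4 members without centring), and PKM and PGAM1 had changes of -0.97 and -0.91. Of 15 hypoxia-response genes, 12 were expressed, and the list divided. VEGFA, the angiogenic factor, was higher (11.1 and 38.2, 1.87), ADM, adrenomedullin, was lower (22.1 and 9.40, -1.13), and the median was 0.14. Genes listed as responsive to PI3K and FOXO were partly higher. Of 20 such genes, 16 were expressed, 6 were higher (3 with a pseudocount of 1), none was lower, and the median was 0.47. Of the 15 with a mean FPKM of at least 1 over Days 0 and 1, 5 were higher and 0 lower. TXNIP, an arrestin that limits glucose uptake, went from 27.9 to 94.9 (1.85), and its relative ARRDC4 from 2.82 to 7.72 (1.51). The FOXO targets IRS2, SESN3 and INSR had changes of 1.01, 1.19 and 1.20, or 0.92, 1.12 and 0.56 with a pseudocount of 1.

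Genes of the matrix and of cell attachment were lower in part. Of 33 collagen and matrix genes, 31 were expressed, 7 were lower, none was higher, and the median was -0.32. Beside COL13A1, these included the laminin chains LAMC1 (129 and 44.4 FPKM, -1.44) and LAMB1 (48.3 and 19.4, -1.21), tenascin C (TNC, 70.8 and 31.9, -1.05) and POSTN (12.5 and 4.35, -1.41). Of 16 integrin subunits, 12 were expressed and 2 were lower, ITGA4 (9.87 and 4.02) and ITGA3 (12.9 and 5.33), with a median of -0.56; ITGB1, the shared beta chain, had 213 and 105 (-0.93). The urokinase protease and its receptor were both lower. PLAU, the protease, went from 57.2 to 15.9 (-1.75), and its receptor PLAUR from 10.1 to 2.60 (-1.83). Of 23 listed activators, matrix proteases and inhibitors, 16 were expressed and 4 were lower, among them these genes and MMP10, the median was -0.56, and PLAU was at 0.404 by Day 18.

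Cytoskeletal and YAP targets were divided. Of 21 contractile genes, 18 were expressed and only TAGLN, the actin-binding protein transgelin, passed 2-fold (367 and 106 FPKM, -1.70), then stood at 226 on Day 2. ACTN1 and MYH9 had changes of -0.79 and -0.60, FLNA of 0.13, and the median was -0.33. Of 22 expressed YAP-TEAD genes of 23, 3 were lower (NT5E, DLC1 and F3, of which a pseudocount of 1 left 1) and none was higher, with a median of -0.30. The 2 classical YAP targets CYR61 and CTGF had 48.9 and 68.9 (0.59) and 131 and 168 (0.45).

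**Figure D4:**
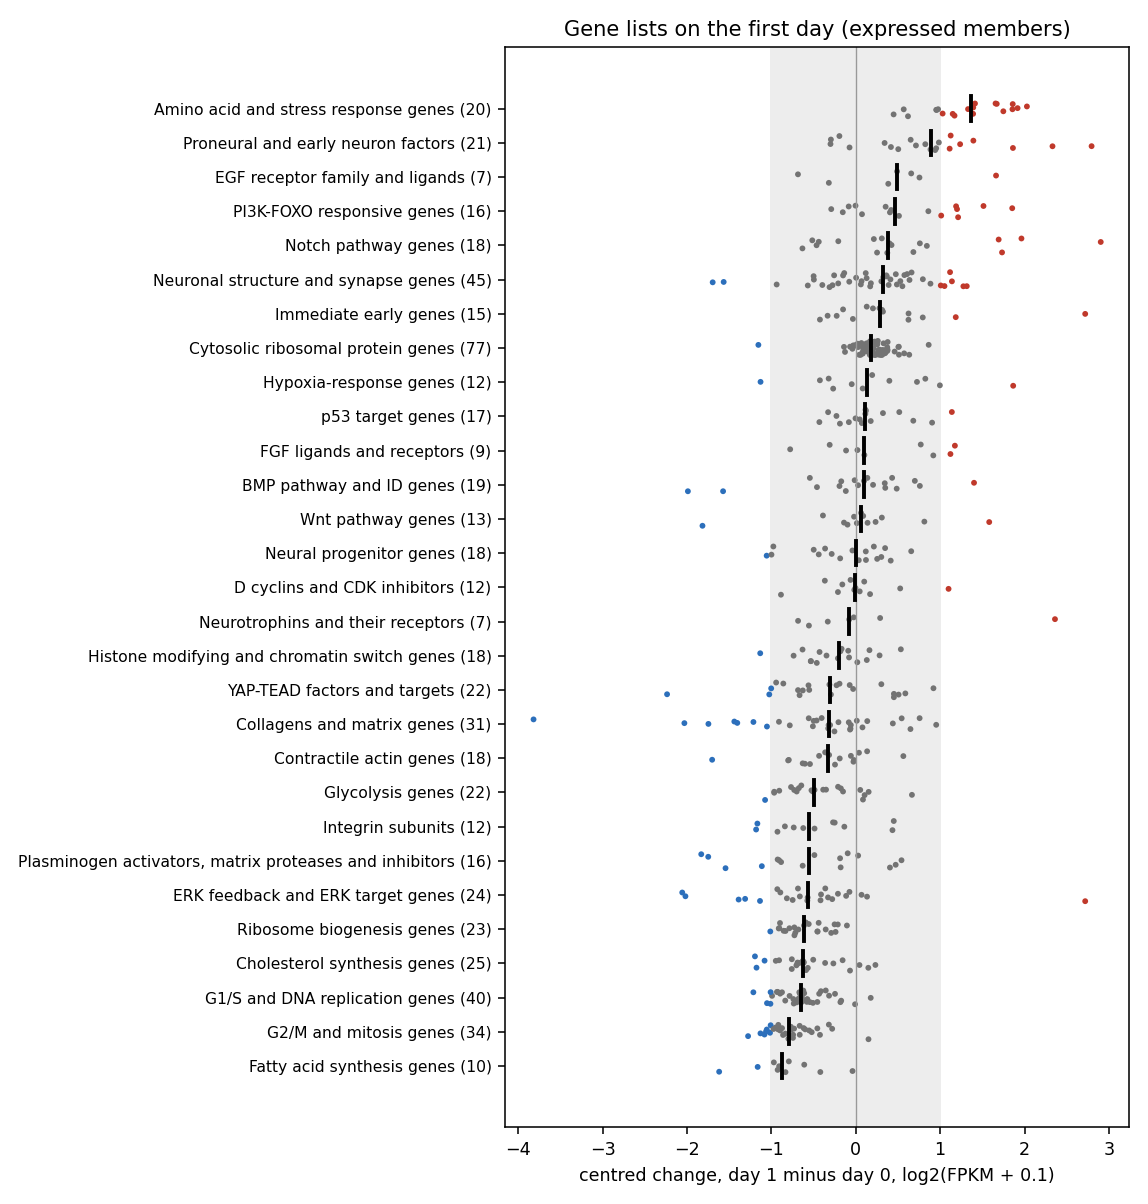
Centred change from Day 0 to Day 1 (x axis, log2 scale) of every expressed member of 29 gene lists (rows, with the number of expressed members), with a black bar at the list median and grey shading within 2-fold. The amino acid and stress list has the highest median (1.36) and the fatty acid list the lowest (-0.87).

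The Notch ligands DLL1 and DLL3 and the targets HES4 and HES5 were higher, while the target HES1 and the receptors NOTCH1, NOTCH2 and NOTCH3 stayed within 2-fold. Of 21 Notch genes, 18 were expressed, 4 were higher, none was lower, and the median was 0.39. DLL1 and DLL3 went from 4.12 to 13.1 FPKM (1.73) and from 3.28 to 12.3 (1.96). HES5 went from 1.95 to 14.2 (2.90), and HES4 from 9.93 to 30.3 (1.69). HES3, a HES family member outside the list, went from 3.02 to 17.9 (2.62). HES1, the other main target in progenitors, had 15.4 and 16.8 (0.21), and NOTCH1, NOTCH2 and NOTCH3 had -0.44, 0.42 and -0.21. Among 13 matched genes of the list, 3 (HES1, HES4 and HES5, 23.1%) held the letters GTGGGAA of the core bound by the Notch effector RBPJ, against 7.62% of all genes. These letters share GGAA with the ETS core. The HES5 window holds them at 224 and 81 bases before the start.
HES5, chr1:2530214-2530513, minus strand: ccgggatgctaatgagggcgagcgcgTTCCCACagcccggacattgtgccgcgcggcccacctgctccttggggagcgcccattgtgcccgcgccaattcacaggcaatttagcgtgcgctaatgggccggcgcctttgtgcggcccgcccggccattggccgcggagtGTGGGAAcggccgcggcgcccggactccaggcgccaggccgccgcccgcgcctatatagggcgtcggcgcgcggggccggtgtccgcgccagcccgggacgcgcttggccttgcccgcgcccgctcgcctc

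Proneural and early neuron factors were higher in part. Of 29 genes, 21 were expressed, 7 were higher, none was lower, and the median was 0.89, against 0.04 over coding records of 3 to 10 FPKM, the class that holds the list's median level. With a pseudocount of 1 in place of 0.1, 3 were higher and the list median was 0.63. The filter and the level class use all 7 days, and some members passed through later days. Of the 17 with a mean FPKM of at least 1 over Days 0 and 1, 6 were higher and 0 lower. With no filter on low values, 7 of the 29 were higher. These counts and the comparison of medians describe the genes kept. NEUROG2, which starts neurogenesis, went from 0.693 to 5.06 FPKM (2.79), NEUROD4 from 0.370 to 2.12 (2.33) and NHLH1, a helix-loop-helix factor of newborn neurons, from 2.24 to 7.87 (1.86). INSM1, ONECUT1, SCRT1 and ST18 had changes between 1.11 and 1.39. SOX4 and SOX11, already at 36.1 and 39.4 on Day 0, had -0.07 and -0.30. NEUROG2 stood at 5.24 on Day 2 and at 19.4 on Day 11.

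Neuronal structure genes went both ways. All 45 genes with a record were expressed over the 7 days, 6 were higher (2 with a pseudocount of 1), 2 were lower, and the median was 0.33. Some passed the filter only through later days. Of the 39 with a mean FPKM of at least 1 over Days 0 and 1, 4 were higher and 2 lower. The higher ones of the 45 were the microtubule proteins MAPT (0.517 and 1.34 FPKM, 1.32) and DCX (5.46 and 11.4, 1.14), the granule protein CHGB, the vesicle proteins SYP and VAMP2 and the RNA-binding protein ELAVL4. The growth cone protein GAP43 was lower, at 193 and 55.7 (-1.70), and so was the neurofilament gene NEFM, at 179 and 56.7 (-1.57). Both returned later, GAP43 to 173 on Day 18 and NEFM to 196 on Day 11. Of 21 neural progenitor genes, 18 were expressed, and only the chromatin protein HMGA2 passed 2-fold (227 and 102, -1.06; 3 members without centring), with a median of 0.00; the radial glial fatty acid-binding gene FABP7 had 195 and 92.8 (-0.98).

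In the BMP list, 19 of 28 genes were expressed and the inhibitors of helix-loop-helix factors split. ID3 went from 44.8 to 10.5 FPKM (-1.99) and ID1 from 1.58 to 4.06 (1.40), while ID4 and ID2 had changes of 0.43 and 0.70. FST, the activin antagonist follistatin, went from 59.6 to 18.7 (-1.57), and the list median was 0.10. Of 24 Wnt genes, 13 were expressed, and the ligand WNT7A was higher (0.757 and 2.30, 1.58) and the inhibitor DKK2 lower (4.26 and 1.06, -1.82). AXIN2, a common read-out of the pathway in a merged record, had 17.5 and 16.5 (0.01), and the median was 0.06.

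Among 2650 expressed lincRNA records of 18132, 170 were higher (6.42%) and 71 lower (2.68%), 70.5% of those past 2-fold being higher, against 59.6% (146 and 99) when uncentred and 57.9% (132 and 96) when records were kept by their mean over Days 0 and 1. With at least 2 FPKM on either day, the 5 lowest were linc-GFI1B-AS, linc-GTF3C5, linc-OR6C76, linc-IGFBP5-AS and linc-SH3BP4-1. The first 2 end at the same base of chromosome 9 (hg19, chr9:135857765-135897253 and chr9:135894775-135897253), on opposite strands. They stood at 2279 and 797 FPKM on Day 0 and are listed at 0 on all 6 later days. A failed estimate cannot be told from a true 0 here, so no fold is given. The 5 highest were linc-CLLU1-4 (0.227 and 3.75), linc-RASA3-5 (0.239 and 3.08), linc-BBC3 (0.261 and 2.97), linc-SENP6 (0.399 and 2.95) and linc-ZNF337-1 (0.698 and 3.48), all intergenic by name.

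Several antisense lincRNA records stood beside coding genes named above. The 2 expressed records named linc-ASNS-AS had changes of 1.77 and 2.07, and linc-FST-AS had -1.62. The change of linc-IGFBP5-AS, whose coding gene is not described above, was -2.76. Over 1088 pairs of an expressed antisense record and its expressed coding gene, the correlation of the changes was 0.499 as a description. Among the 22 pairs whose gene was higher, 8 antisense records were higher. Where the gene was lower, in 15 pairs, 6 antisense records were lower. Over all 2650 expressed lincRNA records, 6.42% were higher and 2.68% lower. The library kit used here does not mark the strand, so reads of a gene and of its antisense record cannot be told apart.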

How the data were processed

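Neural progenitor cultures of Day 0 and Day 1 were grouped by their titles, 3 cultures each. Per the labels and the study's methods, the authors prepared libraries with the TruSeq RNA kit, aligned paired-end reads to hg19 with TopHat2 at default options, assembled transcripts with Cufflinks and estimated expression with Cuffdiff2. Their versions are not given in the sources used here. The deposited FPKM matrix holds 1 value per record and day, pooled by the authors over cultures, and 0 columns of single samples. Limma, which the design had named for single-sample values, a replicate block and leaving out cultures were therefore not possible. A second deposited table gave names, coordinates and strand. Its columns of the authors' own comparisons between adjacent days (values, log2 fold changes, test statistics, p-values and q-values) were not used.

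Records were called coding or lincRNA by identifier, 38369 in all. Of the expressed coding records, 544 carry several symbols and are named as merged. A symbol with several records was read from its record of highest mean FPKM, primary chromosomes first. The centring, the pseudocount of 0.1 FPKM, the minimum mean FPKM of 1 and the 2-fold limit are as stated above, computed with Python 3.11.15, numpy 2.4.6 and pandas 2.3.3, and checked on simulated data. Named genes were the 12 highest and 12 lowest coding records and the 5 highest and 5 lowest lincRNA records under the stated minimum, and members of 38 gene lists, 9 of them cell type markers. Of the symbols in these lists, 8 had no record. Some genes that the rule selects are counted but not reported here. The members, lists and motifs were chosen with earlier results of these data known, and 3 further gene sets were added after the values were seen. Motif letters were searched on both strands of promoter windows from RefSeq, whose build differs from that of the files. Alternatives covered the pseudocount, the centring, the filter, the record set and the fold limit, 1 at a time, with filters changed under the same centring.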

Additional observations from a re-analysis of the deposited data

How the results depend on the processing

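No paired analysis was possible because the files hold 1 value per day, and leaving out single cultures was not possible for the same reason. With a pseudocount of 1, 238 coding records were higher, and 53 lincRNA records were higher and 33 lower. With no filter on low values and the same centring, 845 coding records were higher and 416 lower, and 662 lincRNA records were higher and 366 lower. At 1.5-fold, 1438 coding records were higher and 1087 lower, and 445 lincRNA records were higher and 272 lower. The other 21 counts, over pseudocounts, centring, filters and record sets, stayed within 1.5 times the value reported. Without the filter, the median change was -0.0036 over the 13 EGF family genes and 0.0282 over the 5 oligodendrocyte lineage markers. Of 320 list medians under 8 alternatives, 309 moved by less than 0.20. That limit is the SD over coding records of the change between Days 1 and 2, and is not a spread between cultures. The fold limit leaves every list median unchanged, and each change of centring shifts all of them by the same constant, smaller than 0.20. Agreement under those settings was therefore fixed in advance. The 14 higher members of the amino acid and stress list came to 13 without centring. Depth is unknown, so precision at low FPKM could not be given, and differences between 2 pooled values carry no error.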

Other observations

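Ion channel genes were examined after their values had been seen, taking all coding symbols that begin with KCN or HCN. Of 99 such genes, 31 were expressed, most at low levels with a median mean FPKM of 2.41. With no filter on low values, 23 of the 99 were higher and 6 lower, with a median change of 0.16. Of the 31 expressed over the 7 days, 15 were higher and 2 lower, and of the 25 with a mean FPKM of at least 1 over Days 0 and 1, 11 and 2. Some of the 31 passed the filter through later days, so these counts describe the genes kept and support nothing further. The higher ones of the 31 included KCNH8, of the ether-a-go-go family (1.61 and 7.43 FPKM, 2.23) and the A-type channel KCND1 (0.423 and 2.20, 2.23). The lower ones were KCNF1, a silent modifier subunit (4.40 and 0.394, -3.10), and the inward rectifier KCNJ2 (7.34 and 2.42, -1.47). With a pseudocount of 1, the higher members of the 31 came to 6.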
